A study of Mus musculus with 4 samples.

Results

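Injury-marker nuclei of the mouse kidney are described here, nuclei that carried transcripts of several genes switched on in the injured proximal tubule. They were chosen among barcodes with at most 15000 unique molecular identifiers (UMIs, counted transcripts) and at most 10% of UMIs from mitochondrial genes. A member had at least 1 UMI of at least 3 of 7 marker genes, Havcr1, Vcam1, Dcdc2a, Itgb8, Kcnip4, Sox9 and Krt20. It also had at most 2 UMIs in all of Ncam1, Akap12 and Slc4a11, and at most 3 UMIs in all of Flt1, Slc12a1 and Slc12a3, which mark parietal epithelium, endothelium and more distal tubule. This rule gave 518 members among 39654 barcodes, of which 37959 were within the limits on depth and mitochondrial share, here called eligible. The label "injured proximal tubule" held for them only in part, as described below, so they are called by the rule and not by that name.

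The kidneys came from C57BL/6 mice at week 22 after birth. Of 4 libraries, 2 came from mice given losartan, which blocks the type 1 receptor of angiotensin II, and 2 from untreated mice, and no injury model is named in the labels. Nuclei were isolated from flash-frozen tissue and captured with 10x Genomics chemistry. The labels state no dose, route or length of treatment, and no label says that the libraries of a group came from separate animals, so p-values measure only the spread between these samples.

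The proximal tubule reabsorbs most of the filtered sodium, glucose, phosphate and amino acids, and it is fuelled largely by fatty acid oxidation. After injury its cells lose transporters and metabolic enzymes and switch on a set of injury genes. Some of these cells redifferentiate, while others persist in a proinflammatory and profibrotic state that is marked in mice by Vcam1 and by targets of NF-kB, a transcription factor of inflammation.

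Each library held 9326 to 10342 barcodes, and the median eligible barcode had 3421 to 4259 UMIs. The members numbered 45 and 79 in losartan libraries 1 and 2, against 165 and 229 in untreated libraries 1 and 2. Their median depth was 5355 and 5349 UMIs in the losartan libraries, against 5555 and 6143 in the untreated libraries. The 149 barcode sequences that occurred in more than 1 library included no member. Scrublet marked 41 members as doublets, 3 and 8 in the losartan libraries against 10 and 20 in the untreated libraries, and they were kept unless stated.

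Promoters of 4 NF-kB targets that are described further on are printed first, because NF-kB genes and cytokines were the list with the highest median among the lists compared between members and other proximal tubule nuclei. Capitals mark GGGNNTTTC or its reverse complement GAAANNCCC, most of a consensus NF-kB site, searched on both strands and overlapping no other motif searched. Each window runs 5′ to 3′ along the gene's strand from 250 bases before to 50 bases after the RefSeq start on GRCm38.p6. Cxcl1 and Cxcl2 encode neutrophil-attracting chemokines, Nfkbia an inhibitor that holds NF-kB in the cytoplasm, and Tnfaip3 the ubiquitin-editing protein A20 that dampens NF-kB signalling. The windows are chr5:90890995-90891294 on the + strand for Cxcl1, chr5:90903649-90903948 on the + strand for Cxcl2, chr12:55492598-55492897 on the − strand for Nfkbia and chr10:19015361-19015660 on the − strand for Tnfaip3.
Cxcl1: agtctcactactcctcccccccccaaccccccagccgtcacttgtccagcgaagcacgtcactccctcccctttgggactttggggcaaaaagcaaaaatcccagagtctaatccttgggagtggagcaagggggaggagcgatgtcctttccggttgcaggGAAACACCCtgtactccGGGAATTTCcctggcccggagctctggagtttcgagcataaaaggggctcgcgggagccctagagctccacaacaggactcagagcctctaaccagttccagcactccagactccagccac
Cxcl2: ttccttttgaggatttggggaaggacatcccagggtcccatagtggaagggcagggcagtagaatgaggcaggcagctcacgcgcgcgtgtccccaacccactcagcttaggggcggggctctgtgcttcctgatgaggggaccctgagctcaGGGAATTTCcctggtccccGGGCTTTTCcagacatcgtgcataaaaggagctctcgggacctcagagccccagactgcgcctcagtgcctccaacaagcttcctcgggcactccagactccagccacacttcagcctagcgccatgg
Nfkbia: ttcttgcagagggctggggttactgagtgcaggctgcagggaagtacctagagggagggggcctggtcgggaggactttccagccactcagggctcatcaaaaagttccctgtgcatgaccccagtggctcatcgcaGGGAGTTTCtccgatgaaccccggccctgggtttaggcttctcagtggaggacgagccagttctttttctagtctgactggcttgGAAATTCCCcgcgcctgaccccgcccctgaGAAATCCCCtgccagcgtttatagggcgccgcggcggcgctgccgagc
Tnfaip3: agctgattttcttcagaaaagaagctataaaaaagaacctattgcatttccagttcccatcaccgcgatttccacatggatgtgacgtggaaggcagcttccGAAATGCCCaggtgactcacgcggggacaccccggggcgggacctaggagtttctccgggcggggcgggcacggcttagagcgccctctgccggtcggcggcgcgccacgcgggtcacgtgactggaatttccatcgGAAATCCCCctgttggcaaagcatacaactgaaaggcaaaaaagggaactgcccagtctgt
Cxcl1, Cxcl2 and the Tnfaip3 window shown held 2 matches each and Nfkbia held 3, while another RefSeq start of Tnfaip3 held 0. Of all 32851 RefSeq promoters, 1432 (4.36%) held the motif. Of 25 promoters matched to 22 genes of the list of 30 NF-kB genes and cytokines, 13 (52%) held it. The genes concerned were Ccl20, Csf1, Cxcl1, Cxcl2, Il18, Il6, Nfkb2, Nfkbia, Rel, Rela and Tnfaip3. The list was made of textbook NF-kB targets, so this share is a property of the list and describes letters in a window, not occupied sites.

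The 7 marker genes were present in unequal measure among the members, and these values describe the rule rather than a finding. Itgb8, an integrin chain that activates transforming growth factor beta, was detected in 96.3% of members. It was also detected in 66.7% of the 9899 other proximal tubule nuclei, so it set members apart least. These comparison nuclei were chosen to have at most 1 of the 7 markers, which holds the other markers near 0 in them by choice. Dcdc2a, a doublecortin-domain gene, was detected in 73.9% of members and 2.38% of other proximal tubule nuclei. Kcnip4, a potassium-channel-interacting protein, was detected in 71.0% and 1.66%. Vcam1, an adhesion molecule for leukocytes, was detected in 48.6% and 0.737%. Havcr1 (chr11:46735080-46779578, GRCm38), which encodes the injury marker KIM-1, was detected in 21.6% and 0.0606%. Sox9, a transcription factor of tubule repair, was detected in 17% and 0.101%, and Krt20, a keratin of damaged tubule, in 10.0% and 0.0404%. Over the 11939 nuclei of proximal-tubule-like clusters that were not members, with no limit on markers, Dcdc2a was detected in 12.7%, Kcnip4 in 6.27%, Vcam1 in 2.14% and Havcr1 in 0.586%.

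Detection in intercalated-like nuclei, which should lack most of these genes, gives a background for these shares. At a median depth of 3720 UMIs, against 5718 in members, it was 0.579% for Havcr1, 4.44% for Vcam1, 4.82% for Dcdc2a, 15.3% for Itgb8, 6.17% for Kcnip4, 0.675% for Sox9 and 0.0964% for Krt20. Havcr1, Sox9 and Krt20 were the markers nearest to 0 in intercalated-like nuclei, and they were also the rarest among members. Krt20 was detected in 9.33% of urothelium-like nuclei and Sox9 in 3.57% of nuclei like the distal convoluted tubule. The most frequent combination was Dcdc2a, Itgb8 and Kcnip4 without the other markers, which made up 151 members (29.2%).

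Members close to the threshold were many. Exactly 3 markers were detected in 387 members, and 55 of these had just 1 UMI of each. At least 4 markers were detected in 131 members, which were 2 and 15 nuclei in the losartan libraries, against 38 and 76 in the untreated libraries. Just outside the rule, 3049 nuclei that met the other limits had 2 markers. Nuclei were grouped by Leiden clustering made without the 13 genes of the rule, and clusters were named from cell type markers. The cluster named injured-proximal-tubule-like held 5.18% of the nuclei with 2 markers, 24.0% of those with 3 and 78.6% of those with 4 or more. The median share of UMIs from 14 proximal tubule markers was 1.31%, 0.936% and 0.302% in the same sets of nuclei.

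**Figure D1:**
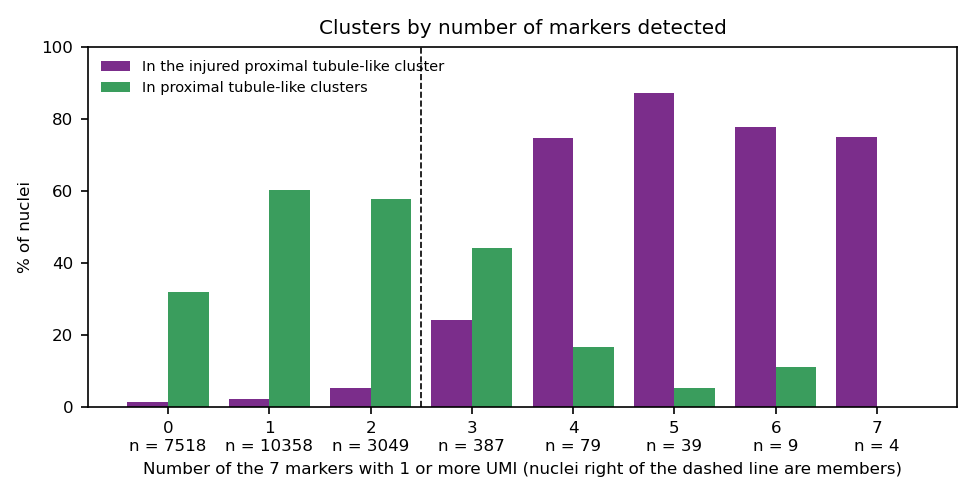
Nuclei within the exclusion limits, by the number of the 7 marker genes detected (horizontal axis), with the percent of them that fell in the injured-proximal-tubule-like cluster and in proximal-tubule-like clusters (bars). Members lie right of the dashed line. The share in the injured-proximal-tubule-like cluster is 5.18% at 2 markers, 24.0% at 3 and at least 74.7% at 4 to 7. That cluster was named from these 7 markers.

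The members fell into several clusters. The injured-proximal-tubule-like cluster held 196 members (37.8%), the proximal-tubule-like clusters 187 (36.1%), the fibroblast-like cluster 38 and the podocyte-like cluster 14. A further 65 were in clusters that stayed unnamed. The injured-proximal-tubule-like cluster held 1003 nuclei in all, of which 19.5% were members. Of its 676 nuclei within the exclusion limits, 480 had fewer than 3 markers detected, so the rule found only part of that cluster.

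Members in the injured-proximal-tubule-like cluster stood out from the others in level more than in detection. Kcnip4 stood at 3447 CPM there (its summed UMIs scaled to the summed UMIs of all genes), against 354 CPM in members of proximal-tubule-like clusters and 5.41 CPM in other proximal tubule nuclei. Havcr1 stood at 321 CPM, against 28.3 and 0.118 CPM in the same sets. Vcam1 stood at 410 CPM in members of the injured-proximal-tubule-like cluster, at 59.7 CPM in those of proximal-tubule-like clusters and at 410 CPM in those of the fibroblast-like cluster. Vcam1 was thus as high in the 38 fibroblast-like members, and it was detected in 23.9% of fibroblast-like nuclei that were not members. Dcdc2a was detected in 66.2% of parietal-like and 50.3% of podocyte-like nuclei that were not members. The median member of the injured-proximal-tubule-like cluster had 0.322% of its UMIs from 14 proximal tubule markers. This compared with 1.45% for members of proximal-tubule-like clusters, 1.88% for other proximal tubule nuclei and 0.132% for podocyte-like nuclei.

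**Figure D2:**
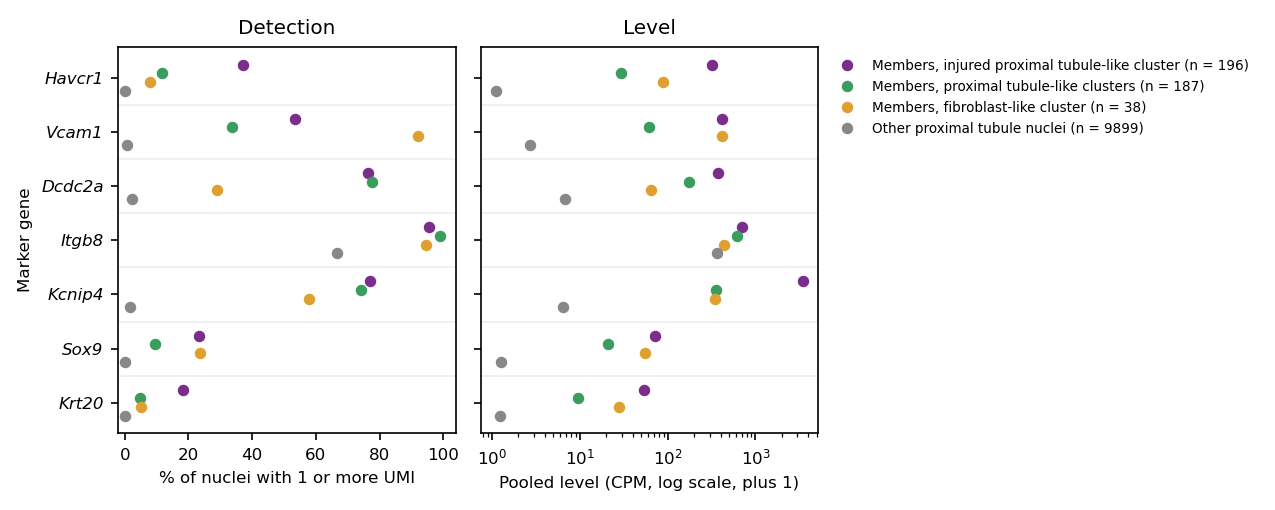
Detection of the 7 marker genes (percent of nuclei with at least 1 UMI) and their level (CPM of summed UMIs) plus 1 on a log scale, in members by cluster and in other proximal tubule nuclei. Kcnip4 and Havcr1 are highest in members of the injured-proximal-tubule-like cluster, at 3447 and 321 CPM, whereas Itgb8 is detected in 66.7% of other proximal tubule nuclei. The injured-proximal-tubule-like cluster was named from these 7 markers.

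Markers of other cell types moved with membership and differed between libraries. The 6 fibroblast markers summed to 815 and 1328 CPM in losartan members and to 615 and 564 CPM in untreated members, against 130 to 176 CPM in other proximal tubule nuclei. The 6 podocyte markers summed to 3423 and 2208 CPM in losartan members and to 3202 and 3872 CPM in untreated members, against 1504 to 1567 CPM in other proximal tubule nuclei. The 7 macrophage and dendritic cell markers summed to 117 and 116 CPM in losartan members and to 238 and 398 CPM in untreated members. Of 17 marker lists, 9 did not overlap between the treatments in members. Of 9458 genes tested in members, 3799 (40.2%) did not overlap either, so this count alone does not set the lists apart. The lists for fibroblast, mural and mesangial cells, distal convoluted tubule, adipocyte and proximal tubule were higher with losartan. The distal convoluted tubule list includes Slc12a3, which the rule itself limits. Slc12a3 stood at 69.1 and 74.9 CPM in losartan members and at 73.9 and 36.4 CPM in untreated members. Those for macrophage and dendritic cell, principal cell and connecting tubule, T and NK cell, and B cell were lower with losartan. These sums had no test, and their part in the treatment differences was not tested. The 7 mural and mesangial markers summed to 114 and 265 CPM in losartan members and to 92.2 and 76.6 CPM in untreated members. The 8 markers of principal cell and connecting tubule summed to 211 and 329 CPM in losartan members and to 382 and 622 CPM in untreated members. The 5 T and NK cell markers summed to 17.3 and 14.97 CPM in losartan members and to 59.5 and 71.5 CPM in untreated members. Defining markers at 0 in every member were Ptgs2 and Oxtr of the macula densa, Pvalb of the distal convoluted tubule, Ms4a1 of B cells and Lep of adipocytes. The 14 proximal tubule markers summed to 14690 and 10779 CPM in losartan members and to 8892 and 7668 CPM in untreated members. In 139 members the summed markers of another cell type exceeded those of the proximal tubule.

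Injury-marker nuclei were a smaller share of the losartan libraries than of the untreated libraries. They made up 0.477% (95% exact Clopper-Pearson interval 0.348 to 0.638%) and 0.802% (0.635 to 0.998%) of eligible barcodes in losartan libraries 1 and 2. They made up 1.81% (1.54 to 2.10%) and 2.40% (2.10 to 2.73%) in untreated libraries 1 and 2. The intervals cover counting error only. Both losartan libraries lay below both untreated libraries, and the 2 untreated libraries differed from each other by less than either did from a losartan library. The mean share was 0.639% ± 0.230 with losartan and 2.10% ± 0.420 without (SD, n = 2 each), a log2 ratio of −1.72. An exact two-sided permutation test of the 4 libraries gave p = 0.333, the smallest p that 2 libraries against 2 can give.

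The difference in share was present under each way of counting that was tried, with a size that varied. After each barcode was thinned to 2000 UMIs, the share was 0.0954% and 0.284% in losartan libraries and 0.990% and 1.14% in untreated libraries. Barcodes below 2000 UMIs were left out, which reduced untreated library 1 from 9135 to 8489 barcodes and no other library. As a share of proximal tubule barcodes, members made up 1.03% and 2.35% in losartan libraries and 6.44% and 10.5% in untreated libraries. With at least 4 markers detected, the share was 0.0212% and 0.152% in losartan libraries, against 0.416% and 0.797% in untreated libraries. With at least 2 markers the groups were closer, at 6.99% and 8.33% in losartan libraries and 10.4% and 11.9% in untreated libraries. Of the members, 247 also passed the gate used for the comparison nuclei. This gate asks for at least 0.7% of UMIs from proximal tubule markers. It also leaves out nuclei in which another cell type's summed markers exceed those of the proximal tubule. These 247 members were 0.329% and 0.416% of eligible barcodes in losartan libraries, against 0.898% and 0.975% in untreated libraries. The losartan and untreated libraries did not overlap in any of these counts.

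The makeup of the members differed between treatments as well. Members in the injured-proximal-tubule-like cluster were 20% and 32.9% of members in losartan libraries, against 37.0% and 43.7% in untreated libraries. Members in proximal-tubule-like clusters were 55.6% and 36.7% in losartan libraries, against 36.4% and 31.9% in untreated libraries. Members in the fibroblast-like cluster were 8.89% and 16.5%, against 4.24% and 6.11%. The groups did not overlap for any of these classes, and neither did 40.2% of all genes tested in members. For proximal-tubule-like clusters they were nearly level, at 29 of 79 members in losartan library 2 against 60 of 165 in untreated library 1. The fibroblast-like members were few, 4 and 13 with losartan and 7 and 14 without. The injured-proximal-tubule-like cluster as a whole held 0.307% and 1.36% of eligible barcodes in losartan libraries, against 4.51% and 4.49% in untreated libraries. The libraries were clustered without being aligned, and 1 proximal-tubule-like cluster had 1676 of its 1705 nuclei in losartan library 1. Adipocyte-like nuclei numbered 1 and 48 in losartan libraries and 2 and 69 in untreated libraries. The part of such differences between libraries in these shares was not tested. The levels of Kcnip4 and Havcr1 overlapped between the treatments. Kcnip4 stood at 180 and 1016 CPM in losartan members and at 810 and 2110 CPM in untreated members. Havcr1 stood at 24.2 and 154 CPM in losartan members and at 120 and 149 CPM in untreated members, with losartan library 1 apart and low.

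**Figure D3:**
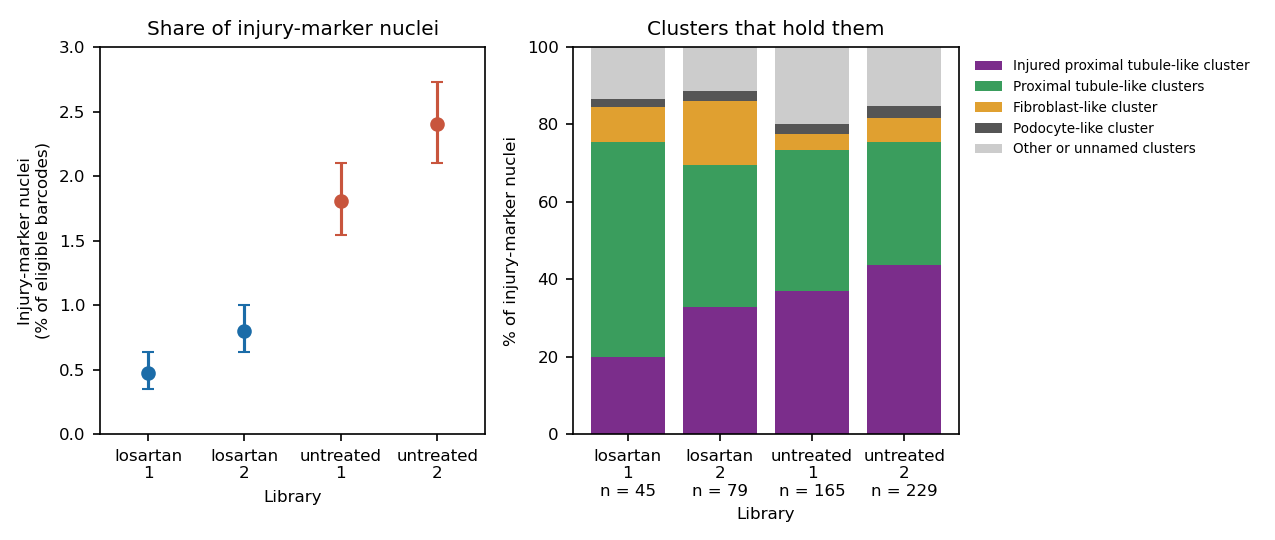
Share of eligible barcodes that are injury-marker nuclei, per library (points, percent, with 95% Clopper-Pearson intervals as bars), and the clusters in which the members fell (percent of members), losartan libraries left of untreated libraries. The losartan libraries sit at 0.477% and 0.802%, both below the untreated libraries at 1.81% and 2.40%.

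Members were then compared with 9899 other proximal tubule nuclei of the same libraries and limits, with at most 1 of the 7 injury markers. These nuclei also passed the gate, with at least 0.7% of UMIs from proximal tubule markers and no other type's summed markers above those. UMIs were summed per library and state and tested with edgeR's quasi-likelihood test, with the library as a block and Benjamini-Hochberg adjustment. Gene values in this comparison are CPM after normalisation by edgeR's trimmed mean of M values (TMM), called normalised CPM. Genes that chose either set were not tested. Of 13303 genes tested, 2863 (21.5%) were called at an adjusted p under 0.05, with 1590 (12%) higher and 1273 (9.57%) lower in members. The median log2 fold change over all genes tested was −0.01.

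The gate on proximal tubule markers applied to the comparison nuclei and not to the members, so the contrast partly reflects that choice. Among the 247 members that pass the gate, 220 of 12809 genes (1.72%) were called, 102 (0.796%) higher and 118 (0.921%) lower, and 184 of them were also called over all members, with the same sign. Without the 139 members richer in another type's markers, 1023 of 13072 genes (7.83%) were called, 522 (3.99%) higher and 501 (3.83%) lower, and without untreated library 2 the count was 1632. Counts with the gate are therefore given beside each list, and values "with the gate" come from that fit.

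Most NF-kB genes and cytokines were higher in members. Of 24 list genes tested, 22 were called higher and 0 lower, with a median log2 fold change of 1.90. With the gate, 5 of 21 were higher and 0 lower, with a median of 0.73. Birc3, an inhibitor of apoptosis and NF-kB target, stood at 167, 172, 156 and 169 normalised CPM in members of losartan 1, losartan 2, untreated 1 and untreated 2. The values in other proximal tubule nuclei were 20.8, 19.4, 28.1 and 24.1 normalised CPM, in the same order of libraries. Every library thus had a higher value in members, with little spread, and the log2 fold change was 2.83 ± 0.133 (SE; edgeR adjusted p = 4.79e-09). With the gate it was 1.51 (edgeR adjusted p = 5.52e-05).

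Cxcl1, whose promoter is printed above, stood at 64.7, 110, 90.8 and 91.0 normalised CPM in members, against 19.9, 8.11, 10.4 and 16.1 in other proximal tubule nuclei. The ranges did not overlap, and the log2 fold change was 2.81, or 1.84 with the gate. Cxcl2 was called higher at a log2 fold change of 7.28 ± 0.459 (SE; edgeR adjusted p = 7.33e-08), but from few nuclei, since 22 members had a UMI of it. In members of the injured-proximal-tubule-like cluster Cxcl2 stood at 76.4 CPM, and in members of proximal-tubule-like clusters it was at 0. Il34, a growth factor for macrophages, was higher by 1.54 and by 0.96 with the gate. C3, the central complement component, was higher by 2.29, and by 1.79 with the gate. Nfkbia and Tnfaip3 were higher by 1.02 and 2.54 over all members, and neither was called with the gate. Ccl2, a monocyte-attracting chemokine, was higher by 4.39, with 25 members carrying a UMI.

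**Figure D4:**
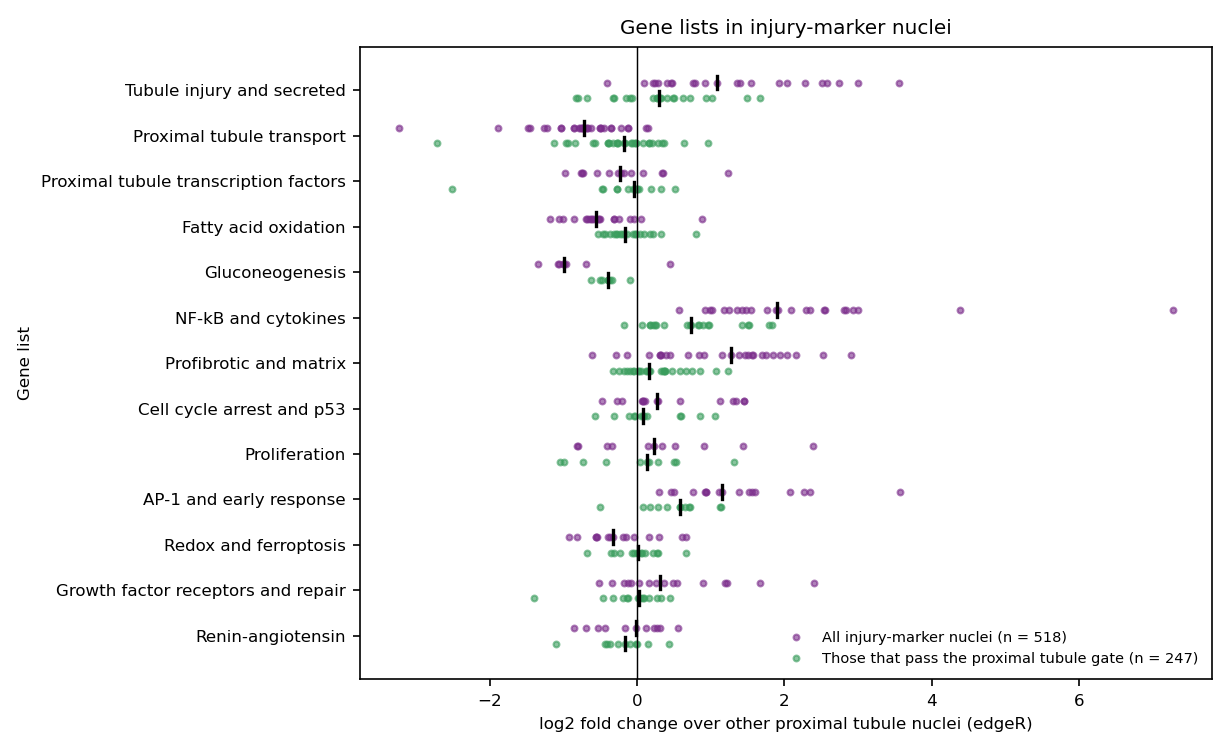
Log2 fold changes of the genes of each list, members over other proximal tubule nuclei, for all members and for members that pass the proximal tubule gate, with black bars at the median of each list. The NF-kB list has a median of 1.90 over all members and 0.73 with the gate, and proximal tubule transport has −0.71 and −0.17.

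The genes with the largest increases outside the lists included several that were mostly in the injured-proximal-tubule-like cluster. Kcnh8, a voltage-gated potassium channel, stood at 34.1, 108, 205 and 233 normalised CPM in members, against 0.796, 1.13, 3.80 and 1.80 in other proximal tubule nuclei. Members were higher in each library, and those of losartan library 1 were lowest. The log2 fold change of Kcnh8 was 6.25 ± 0.218 (SE; edgeR adjusted p = 4.3e-10), and it was 4.33 with the gate (edgeR adjusted p = 2.09e-07). Kcnh8 was detected in 133 members, at 496 CPM in those of the injured-proximal-tubule-like cluster and 67.4 CPM in those of proximal-tubule-like clusters.

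Sytl2, a protein of vesicle traffic, stood at 150, 252, 262 and 406 normalised CPM in members, against 7.11, 9.24, 20.3 and 16.0 in other proximal tubule nuclei. Its log2 fold change was 4.36, and 2.23 with the gate. Sorcs1, a sorting receptor, stood at 3.41, 218, 90.8 and 294 normalised CPM in members, against 6.10, 3.91, 5.44 and 6.70 in other proximal tubule nuclei. Losartan library 1 was thus the exception, with no increase in its 45 members, while the other libraries lay far above. The log2 fold change of Sorcs1 was 4.67 over all members and 3.38 with the gate. Ankrd1, a stress-induced ankyrin repeat gene, was higher by 4.91, and Rgs20, a regulator of G protein signalling, by 4.74.

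Some of the leading genes were podocyte genes. Nphs1, which encodes nephrin of the slit diaphragm, was called higher by 3.90 (edgeR adjusted p = 4.04e-08), but by 0.41 with the gate (edgeR adjusted p = 0.914). Nphs1 stood at 1862 CPM in podocyte-like nuclei and at 7.11 CPM in members of the injured-proximal-tubule-like cluster. Nebl was higher by 3.83 over all members, was not called with the gate (1.10, edgeR adjusted p = 0.404), and stood at 2406 CPM in podocyte-like nuclei. Srgap1, at 3773 CPM in podocyte-like nuclei, was higher by 3.85, and by 1.42 with the gate (edgeR adjusted p = 0.0130). Ptchd4 was higher by 4.28 and was most abundant in podocyte-like nuclei as well, at 652 CPM against 54.2 CPM in members of the injured-proximal-tubule-like cluster. Zbtb7c was higher by 3.81, and by 2.0 with the gate.

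Genes of tubule injury and secreted products were often higher in members, with 13 of 23 called higher, 0 lower and a median log2 fold change of 1.09. With the gate, 4 of 22 were higher, 0 were lower, and the median was 0.30. Spp1, which encodes the secreted phosphoprotein osteopontin, stood at 215, 445, 607 and 1058 normalised CPM in members, against 126, 159, 336 and 469 in other proximal tubule nuclei. Each library had the higher value in members, and both states were lowest in the losartan libraries. The log2 fold change of Spp1 was 1.09 (edgeR adjusted p = 7.93e-06), and 0.48 with the gate. Cp, the copper-carrying ferroxidase ceruloplasmin, was higher by 2.58 and by 0.94 with the gate. Cd44, a hyaluronan receptor, was higher by 3.55, and Anxa3, a membrane-binding annexin, by 3.0. Cdh6, a cadherin of the developing nephron, was higher by 2.51 over all members but was not called with the gate. Lcn2, which encodes the urinary injury marker NGAL, was not called, at −0.41 (edgeR adjusted p = 0.340).

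Early response genes of the AP-1 group were higher in 14 of 17 cases and lower in 0, with a median of 1.15. With the gate, 1 of 12 was higher and 0 were lower, and without untreated library 2 the count over all members was 5 of 15. Without members richer in another type's markers it was 8 of 14. Klf6, a zinc-finger factor induced by injury, was higher by 2.26, and by 1.14 with the gate. Atf3, a stress-induced factor of the ATF/CREB family, was higher by 3.57, from 13 members with a UMI. Junb and Egr1 were higher by 1.39 and 2.08, and neither was called with the gate, while Fos was not called (0.29).

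Profibrotic and matrix genes were higher in 20 of 27 cases and lower in 1, with a median of 1.27. With the gate, 1 of 26 was higher, 0 were lower and the median was 0.16. Without members richer in another type's markers, 11 were higher and 1 lower. Ctgf, a matrix-associated growth factor, was higher by 2.52 over all members, but at −0.04 with the gate and at −0.11 without members richer in another type's markers. It stood at 1894 CPM in fibroblast-like members and at 40.9 CPM in members of the injured-proximal-tubule-like cluster. Pdgfd, a ligand of the platelet-derived growth factor receptor beta, was the gene called with the gate, at 0.74, against 1.75 over all members. Pdgfd stood at 919 CPM in members of the injured-proximal-tubule-like cluster and at 141 CPM in fibroblast-like members. Tgfb2, a transforming growth factor, was higher by 2.90, Itgav, the integrin chain that pairs with Itgb8, by 0.84, Col18a1 by 1.70 and Fn1, which encodes fibronectin, by 1.84.

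Transport genes of the proximal tubule moved the other way. Of 30 tested, 22 were called lower and 0 higher, with a median log2 fold change of −0.71. With the gate, 7 were lower and 1 higher, and the median was −0.17. Slc34a3, a sodium-phosphate cotransporter, stood at 0, 2.12, 5.56 and 0.603 normalised CPM in members, against 29.7, 27.0, 20.6 and 19.0 in other proximal tubule nuclei. The ranges lay far apart, and the log2 fold change was −3.23 ± 0.430 (SE; edgeR adjusted p = 6.65e-05), or −2.71 with the gate. Slc6a19, the main transporter of neutral amino acids, stood at 44.3, 70.0, 53.8 and 53.6 normalised CPM in members, against 297, 193, 200 and 189 in other proximal tubule nuclei. All members' values lay below all others, with a log2 fold change of −1.89, or −1.13 with the gate. Slc7a8, an amino acid exchanger, was at −1.46, Slc9a3, the sodium-proton exchanger NHE3, was at −1.26, and Gatm, an enzyme of creatine synthesis on this list, was at −1.49. Slc5a1, the high-affinity sodium-glucose cotransporter, was not called (0.14, edgeR adjusted p = 0.624).

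Metabolic genes were lower in members as well. Of 20 genes of fatty acid oxidation, 13 were called lower and 1 higher, with a median of −0.56, and with the gate 2 were lower and 1 higher. Without members richer in another type's markers, 8 were lower and 1 higher. Acaa1b, a peroxisomal thiolase, was at −1.18 and Cyp4b1 at −1.06. Pdk4, which inhibits pyruvate dehydrogenase, was higher, at 0.88, and it kept its call with the gate at 0.81. Acadm, a mitochondrial acyl-CoA dehydrogenase, was not called (−0.10). Of 8 genes of gluconeogenesis, 7 were lower and 1 higher, and with the gate 4 were lower and 0 higher. G6pc, the glucose-6-phosphatase that releases glucose, stood at 109, 295, 158 and 143 normalised CPM in members, against 359, 646, 398 and 366 in other proximal tubule nuclei. Members were lower in every library, with a log2 fold change of −1.34, or −0.63 with the gate. Pck1 and Fbp1, the other regulated steps, were at −1.05 and −1.0. Ldhb, a lactate dehydrogenase chain, was the exception at 0.45, and was at −0.09 and not called with the gate.

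Among proximal tubule transcription factors, 6 of 14 were lower and 2 higher, with the gate 2 were lower and 0 higher, and without untreated library 2 there were 4 lower and 0 higher. Over all genes tested, 12% were higher and 9.57% lower, and with the gate 0.796% and 0.921%, so the 2 higher do not set this list apart. Ppara, the nuclear receptor that drives fatty acid oxidation, stood at 484, 717, 687 and 553 normalised CPM in members, against 1033, 1246, 1328 and 1175 in other proximal tubule nuclei. The ranges did not overlap, with a log2 fold change of −0.98, or −0.47 with the gate. Maf was at −0.73 and Nr1h4, the bile acid receptor FXR, at −0.76, and Nr1h4 was not called with the gate. Pax8, a factor of nephron development, was higher at 0.36 (edgeR adjusted p = 0.0266) and not called with the gate.

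The largest decreases outside the lists were in genes of varied function, and most kept their call with the gate. Clec2h was at −2.0, Cyp2d12 at −1.72, Chrna4 at −1.68 and Lpar3, a receptor for lysophosphatidic acid, at −1.56. Gldc, which cleaves glycine, and Pik3c2g (the gene ENSMUSG00000030228) were both at −1.55. Kcnh4, Fam151a, Car4, a membrane carbonic anhydrase, and Ces1e were at −1.84, −1.63, −1.55 and −1.54, and these lost their call with the gate.

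Among cell cycle arrest and p53 targets, 3 of 15 were higher and 0 lower, against 12% higher and 9.57% lower over all genes tested. With the gate 1 of 13 was higher. The list was thus not clearly set apart from all genes by its count of calls. Gdf15, a stress-induced cytokine, stood at 20.4, 40.3, 137 and 68.7 normalised CPM in members, against 9.34, 19.3, 65.8 and 28.8 in other proximal tubule nuclei. Members were higher in each library, both states were lowest in losartan library 1, and the log2 fold change was 1.13, or 1.06 with the gate. Btg2 was higher by 1.46, while Cdkn1a, which encodes p21, and Mdm2 were not called, at 0.59 and 0.07.

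In proliferation genes, 1 of 11 was higher and 1 lower, with the gate 0 were higher and 1 lower, and without untreated library 2 there were 0 calls. Over all genes tested, 12% were higher and 9.57% lower, so these counts do not set the list apart. Diaph3 was at 2.39 and Ccnd1, a cyclin, at −0.80. Mki67, detected in 12 members, was at 0.91 and Top2a, detected in 10, at 1.44, and neither was called. In redox genes, 1 of 15 was higher and 6 lower, against 12% and 9.57% of all genes tested. With the gate 1 was higher and 1 lower, against 0.796% and 0.921% of all genes. Without untreated library 1 or 2 these counts were 0 and 3 or 1 and 3, and without members richer in another type's markers they were 1 and 3. Gpx3, the secreted glutathione peroxidase made by the proximal tubule, was at −0.92 and kept its call with the gate at −0.68. Cat, which encodes catalase, was at −0.81, Acsl4, an acyl-CoA synthetase of ferroptosis, at 0.61, and Gpx4 was not called (−0.32).

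In growth factor receptors, 5 of 16 were higher and 1 lower, against 12% and 9.57% of all genes tested. With the gate 1 of 15 was higher, against 0.796% of all genes. Without untreated library 1, without untreated library 2 or without members richer in another type's markers, 3 were higher and 1 lower. Erbb4, a receptor of neuregulins, stood at 348, 481, 816 and 843 normalised CPM in members, against 156, 218, 451 and 259 in other proximal tubule nuclei, a log2 fold change of 1.22, or 0.44 with the gate. Met, the receptor of hepatocyte growth factor, and Jag1, a Notch ligand, were higher by 0.37 and 1.67, Lgr4 was lower at −0.51, and Egfr was not called (−0.08). Among renin-angiotensin genes, 1 of 11 was higher and 1 lower, against 12% and 9.57% of all genes tested, and with the gate 0 were called. Leaving out 1 library gave 1 to 4 calls. Agtr1a, the gene of the type 1 angiotensin II receptor, stood at 92.0, 140, 93.6 and 63.3 normalised CPM in members, against 83.8, 76.8, 72.4 and 68.6 in other proximal tubule nuclei. These ranges overlap, and Agtr1a was not called (0.31, edgeR adjusted p = 0.172). It stood at 514 CPM in fibroblast-like members and at 45.3 CPM in members of the injured-proximal-tubule-like cluster. Mme, which encodes neprilysin, was at 0.55 and Anpep at −0.86, both called over all members, and Ace and Ren1 were not called.

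Losartan was then compared with no treatment within the members. With edgeR on 4 library sums, 2 of 9458 genes tested (0.0211%) were called after Benjamini-Hochberg adjustment, 1 higher and 1 lower (0.0106% each), and 853 had an unadjusted p under 0.05. The median log2 fold change over all genes tested was 0.00. Without 1 of the 4 libraries, 24 to 138 genes were called, and both genes called over 4 libraries were among them each time. Values in this comparison are normalised CPM over the members alone, so they differ slightly from those above.

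Igfbp3 (chr11:7206086-7213923, GRCm38), a secreted binding protein of insulin-like growth factors, was higher with losartan. It stood at 421 and 412 normalised CPM in losartan members, against 98.9 and 70.6 in untreated members. The groups lay apart, with a log2 fold change of 2.31 ± 0.225 (SE; edgeR adjusted p = 0.0210). Most of it came from few nuclei: 78.1% of the UMIs of Igfbp3 in members were in the 38 members of the fibroblast-like cluster. In those it stood at 4934 and 2421 CPM with losartan and at 1434 and 760 CPM without. In members of the injured-proximal-tubule-like cluster it stood at 108 and 41.4 CPM with losartan, against 22.7 and 19.8 CPM without, from 5 UMIs in each losartan library. Without members richer in another type's markers the log2 fold change was 0.91 (edgeR adjusted p = 0.671), and with the gate it was 0.76 (edgeR adjusted p = 0.703). The share of members in the fibroblast-like cluster was itself higher with losartan, and its part in the result was not tested.

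Cdh6 (chr15:13028701-13173675, GRCm38) was lower with losartan. It stood at 18.6 and 17.8 normalised CPM in losartan members, against 137 and 147 in untreated members. The groups lay far apart, with a log2 fold change of −2.96 ± 0.300 (SE; edgeR adjusted p = 0.0210). Members of the injured-proximal-tubule-like cluster carried 87.3% of its UMIs, at 108 and 41.4 CPM with losartan and at 361 and 328 CPM without. The losartan values there came from 5 UMIs in 9 nuclei and 5 UMIs in 26 nuclei, against 127 and 199 UMIs in the untreated libraries. Within those members alone the log2 fold change was −2.45 and was not called (edgeR adjusted p = 0.244), and without members richer in another type's markers it was −2.76 (edgeR adjusted p = 0.0764). Other proximal tubule nuclei held Cdh6 at 4.93 and 7.17 normalised CPM with losartan, against 23.0 and 15.3 without, which was not called either (−1.67, edgeR adjusted p = 0.203). Members of the injured-proximal-tubule-like cluster were a smaller share of losartan members, and the part of this in the difference in Cdh6 was not tested.

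**Figure D5:**
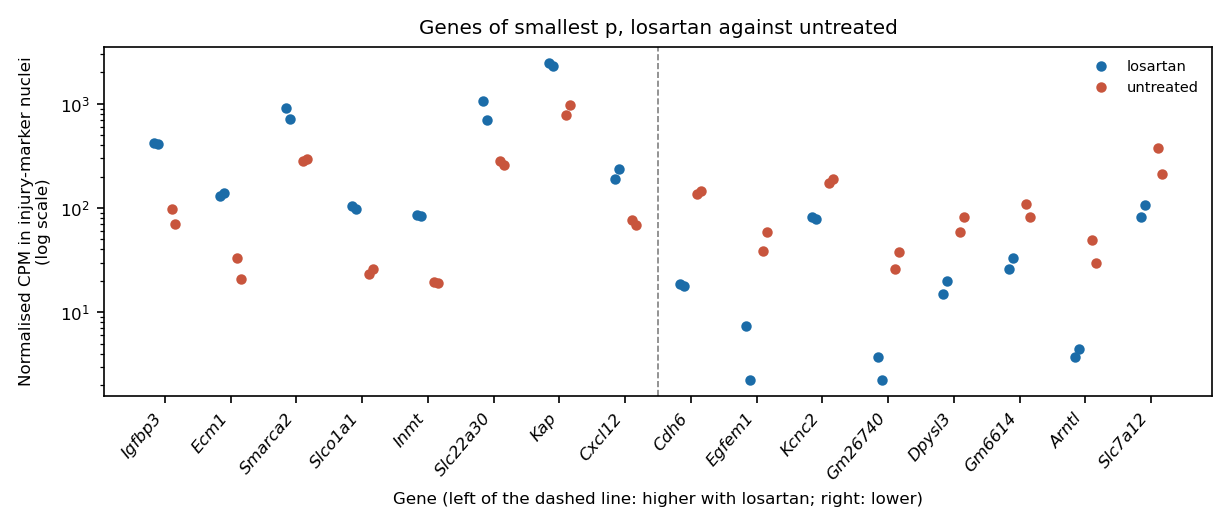
Level of named genes in the injury-marker nuclei of each library (normalised CPM, log scale), with losartan libraries left of untreated libraries. Igfbp3 sits at 421 and 412 with losartan, against 98.9 and 70.6 without, and Cdh6 at 18.6 and 17.8, against 137 and 147.

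The genes of next smallest p were not called (edgeR adjusted p = 0.0548 for each of those higher). Kap, the androgen-regulated kidney protein, stood at 2470 and 2323 normalised CPM in losartan members, against 776 and 975 in untreated members. It was higher with losartan in members of the injured-proximal-tubule-like cluster, at 1516 and 1740 CPM against 444 and 657 CPM, and likewise in the other clusters. Fibroblast-like members held Kap at 1332 and 1361 CPM with losartan, against 514 and 483 CPM without. Whether the nuclei themselves made this transcript was not tested. Slco1a1, an organic anion transporter, stood at 104 and 98.0 normalised CPM with losartan, against 23.3 and 26.1 without. Smarca2, a chromatin remodeller, stood at 916 and 711 normalised CPM, against 280 and 293. Inmt, a methyltransferase, stood at 85.7 and 84.6 normalised CPM, against 19.4 and 19.1. Slc22a30, an organic ion transporter that is among the markers of the gate, stood at 1065 and 704 normalised CPM, against 285 and 258. None of these 5 overlapped between the groups, and neither did 40.2% of all genes tested. In other proximal tubule nuclei Kap stood at 2984 and 2805 normalised CPM with losartan, against 1390 and 1384 without, and Smarca2 at 1154 and 928, against 383 and 382, so both had the same direction there.

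Ecm1 and Cxcl12 also reached an adjusted p of 0.0548, and 61.0% of the members' UMIs of each were in the fibroblast-like cluster. Ecm1, a matrix protein, stood at 130 and 138 normalised CPM in losartan members, against 33.0 and 21.0 in untreated members. Cxcl12, a chemokine of stromal cells, stood at 190 and 236 normalised CPM, against 76.6 and 68.7. Both pairs of groups lay apart. Among genes lower with losartan and not called, Kcnc2, a potassium channel, stood at 82.0 and 78.0 normalised CPM in losartan members, against 176 and 190 in untreated members. Arntl, which encodes the clock factor BMAL1, stood at 3.73 and 4.45 normalised CPM, against 49.5 and 29.9. Its losartan values rest on 1 UMI per library in proximal-tubule-like clusters and 1 UMI in the injured-proximal-tubule-like cluster of losartan library 2. Egfem1, Gm26740, Dpysl3, Gm6614 and Slc7a12 completed the lower group, with edgeR adjusted p between 0.148 and 0.223.

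Within the lists, no gene other than Cdh6 was called under losartan. Of 16 injury and secreted genes tested, 14 had a negative log2 fold change, with a median of −0.82, and 8 were lower in both losartan libraries than in both untreated libraries. Over all genes, 20.2% were lower in that way and 20% higher, and the median log2 fold change was 0.00. Of 13 genes of cell cycle arrest and p53, 12 were negative, with a median of −0.64, and 9 were lower without overlap. Of 9 AP-1 genes, 7 were negative, with a median of −0.51, and 4 were lower and 1 higher without overlap. Of 27 profibrotic and matrix genes, 20 were negative, and 7 were lower and 2 higher without overlap. Of 22 NF-kB genes and cytokines, 14 were negative, with a median of −0.25, and 8 were lower and 1 higher without overlap. Of 28 proximal tubule transport genes, 18 were positive, with a median of 0.11, and 9 were higher and 4 lower without overlap. The injured-proximal-tubule-like cluster was a smaller share of members with losartan, and the part of this makeup in these directions was not tested.

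Whether losartan differed in its effect between members and other proximal tubule nuclei was tested as an interaction of state and treatment. With edgeR, 4 of 13303 genes (0.0301%) were called after Benjamini-Hochberg adjustment, 2 with a higher and 2 with a lower effect in members (0.015% each), and 843 had an unadjusted p under 0.05. With DESeq2, 0 were called. Without losartan library 1 or 2, edgeR called 105 or 168, and without untreated library 1 or 2 it called 1 or 0. The median interaction over all genes was −0.03. In other proximal tubule nuclei by themselves, edgeR called 0 of 14736 genes for losartan, and 1795 had an unadjusted p under 0.05.

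Cxcl12 had an interaction of 1.51 (edgeR adjusted p = 0.0238). Its members' values are given above, and other proximal tubule nuclei stood at 41.6 and 44.5 normalised CPM with losartan, against 46.1 and 39.2 without, which overlap. Tenm3, a teneurin of cell adhesion, had an interaction of 1.25 (edgeR adjusted p = 0.0238). Tenm3 stood at 380 and 296 normalised CPM in losartan members, against 296 and 162 in untreated members. In other proximal tubule nuclei it stood at 48.7 and 53.3 normalised CPM with losartan, against 108 and 62.1 without. Losartan values of Tenm3 were thus not lower in members, while they were lower in the other nuclei. With the gate the interaction of Tenm3 was 1.43 (edgeR adjusted p = 0.00797).

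Phactr1, a regulator of actin, had an interaction of −1.45 (edgeR adjusted p = 0.0238). It stood at 104 and 163 normalised CPM in losartan members, against 264 and 141 in untreated members, which overlap. Other proximal tubule nuclei were at 158 and 158 normalised CPM with losartan, against 108 and 64.9 without. Egfem1 had an interaction of −4.54 (edgeR adjusted p = 0.0413), with 7.45 and 2.23 normalised CPM in losartan members, against 38.8 and 58.5 in untreated members. In other proximal tubule nuclei Egfem1 stood at 36.0 and 21.7 normalised CPM with losartan, against 22.3 and 8.57 without. Only 28 members had a UMI of Egfem1, and 1 nucleus of untreated library 2 held 59 of the 135 UMIs. For Phactr1 and Egfem1, 73.9% and 77.0% of the members' UMIs were in clusters other than the injured-proximal-tubule-like, proximal-tubule-like and fibroblast-like ones.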

How the data were processed

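The deposited files hold raw UMI counts per gene and barcode, written by Cell Ranger 5.0.0 per the file headers, for 27998 genes in each of 4 libraries. The submitters' processing notes name mm10 and Bowtie 0.12.2 without a role, and nothing says whether counting used strand, which leaves genes that overlap another gene uncertain. Gene positions were taken from GENCODE M21 on GRCm38 by gene ID, with 27722 matched.

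The members and the gene lists were chosen with earlier results of these data known. Barcodes within the limits were clustered with scanpy 1.11.5 (10000 UMIs per nucleus, 2989 variable genes without the genes of the rule, 30 principal components, 15 neighbours, Leiden resolution 1), which gave 36 clusters. A cluster was named from at least 3 markers, each detected in at least 10% of its nuclei, and the name means resemblance. Doublets were scored per library with Scrublet in scanpy and marked 3201 of 37959 eligible barcodes. They were left out only in an alternative.

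UMIs were summed per library and state and tested with edgeR 4.0.16 (TMM, filterByExpr, quasi-likelihood test) in R 4.3.3, with Benjamini-Hochberg adjustment and a threshold of 0.05 over all genes except those of the rule and, where other proximal tubule nuclei entered, their 14 markers. DESeq2 1.42.0 was an alternative. Shares were compared by an exact permutation test. Outside the lists, genes were named by size, as the 12 largest changes each way among called genes at 20 CPM or more, predicted genes left out. For losartan the called genes and the up to 8 of smallest p each way were named, and for the interaction all called genes. Genes named from the lists were picked with their values known. Of 257 list genes, those under the filter on low counts were not tested. Alternatives left out 1 library, changed normalisation, filter, tool, marker minimum or members, or added the replicate number, and 2 sets of members (those of the injured-proximal-tubule-like cluster and those with the gate) were added after seeing the data.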

Additional observations from a re-analysis of the deposited data

Results flagged for a closer look

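For 4 genes the effect of losartan differed between injury-marker nuclei and other proximal tubule nuclei by the test of that difference (edgeR interaction, adjusted p = 0.0238 for Cxcl12, Tenm3 and Phactr1 and 0.0413 for Egfem1). The difference in log2 fold change, members minus other nuclei, was 1.51 for Cxcl12, 1.25 for Tenm3, −1.45 for Phactr1 and −4.54 for Egfem1. In members, losartan values lay above untreated values for Cxcl12 and below them for Egfem1, and the values of Phactr1 overlapped. Of these, 1 gene was among the 7 called in members that pass the gate, and 0 of them were called with DESeq2.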

How the results depend on the processing

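The share of injury-marker nuclei was lower with losartan under all 13 alternatives, with a log2 ratio between −2.81 (at least 4 markers) and −0.54 (at least 2), and between −2.14 and −1.39 with 1 library left out. Losartan calls within members, 2 in the reported fit, stayed at 2 with DESeq2 size factors and without doublets. They were 26 with DESeq2, 304 without a filter on low counts, 24 to 138 with 1 library left out, 1 with at least 4 markers, and 0 without members richer in another type's markers, in the injured-proximal-tubule-like cluster alone and with the gate. Calls between members and other proximal tubule nuclei, 2863 in the reported fit, were 1632 to 3035 with 1 library left out, 1023 without members richer in another type's markers and 220 with the gate. The interaction, 4 in the reported fit, gave 0 with DESeq2 and without members richer in another type's markers, 55 without a filter, 0 to 168 with 1 library left out, 1 without doublets and 7 with the gate. Of 937 values of named genes between the states, 870 kept direction and call and 3 turned round, Ldhb with the gate (−0.0899) and Ctgf with the gate (−0.0411) and without members richer in another type's markers (−0.115). Without 1 of the untreated libraries, Pax8, Pdk4, Ldhb, Met, Acsl4, Mme, Ccnd1, Diaph3 or Anpep lost their call, and without losartan library 1 or 2 Pax8, Ldhb or Anpep did. For losartan within members, 108 of 181 values of named genes kept direction and call, and for the interaction 19 of 44. Where 1 library of a group was left out, the other was assumed to vary like the other group. The cause of these shifts was not tested, except that each smaller set holds fewer nuclei. Depth limits rare genes most, since a gene at a few CPM had a handful of UMIs in the 45 members of losartan library 1.

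The replicate numbers come from the labels and were not shown to pair libraries. The deviations of losartan and untreated libraries with the same number correlated at 0.036 over genes. With the replicate block the log2 ratio of the share was −1.75, and 93 genes were called for losartan within members, both genes of the unblocked fit among them.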
